A study of Mus musculus with 36 samples.

Results

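The genes described here are the mouse zinc finger genes named Zfp and a number, and the measurement is DNA methylation at their promoters in a pre-B cell line. Of 385 autosomal protein-coding genes with such a name in GENCODE M21 (GRCm38), Zfp42 and Zfp608 were left out, which left 383. A gene was measured where a cluster of CpG positions, each at most 100 bp from the next, overlapped the 1 kb on either side of one of its transcription starts. This held for 194 of the 383 genes (50.7%), whose 244 clusters were among 16734 in the tables. A gene was counted as part of a chromosomal array when the next Zfp gene lay within 200 kb, and as single otherwise. By this rule 242 genes formed 51 arrays and 141 were single.

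Most Zfp genes encode proteins with a row of C2H2 zinc fingers, small folds held by a zinc ion that together read a DNA sequence. Many of them also carry a KRAB domain at their start, which recruits the corepressor Trim28 and through it the histone methyltransferase Setdb1, and these KRAB zinc finger proteins are best known for silencing transposable elements. The KRAB genes multiplied by tandem duplication and therefore often lie side by side in arrays, while the single genes include many older transcription factors. A promoter with many CpG dinucleotides is usually free of methylation, and dense methylation there goes with a silent gene.

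The cells were B3, a mouse pre-B line, and DNA was profiled by reduced representation bisulfite sequencing (RRBS), which reads fragments cut at CCGG by MspI. In the Ikaros series the cells carried an MSCV retrovirus for HA-Ikaros-ERt2-IRES-GFP, a fusion of the transcription factor Ikaros with a hormone-binding domain that moves into the nucleus on 4-hydroxytamoxifen (4-OHT). In the Control series the vector held no Ikaros, and both series received 0.5 uM 4-OHT. Samples were taken at 0, 2, 6, 12, 18 and 24 h, with 3 replicates at each time in each series and therefore 36 samples. The labels list 4-OHT at every time, whereas the methods of the study give none at 0 h. Each series came from 1 transduced population of the same line, so a difference between the series that is present at 0 h cannot be told apart from a difference between the populations. The replicates came from separate expansions of these populations, and p-values measure the spread between them only.

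The values are smoothed methylation levels, given below as percentages, and no read numbers accompany them, so the depth of each value is unknown. Empty positions made up 0.139% to 3.18% of an Ikaros sample and 0.110% to 11.6% of a Control sample, with Control 0 h replicate 1 at the top. Levels of exactly 0% or 100% had a median share of 34.2% in Ikaros and 26.7% in Control, with the highest, 59.1%, in Ikaros 24 h replicate 2. One sample went against its label. Over 801 clusters outside the Zfp promoters that differed between the series, Control 24 h replicate 2 lay 64.2% of the way from the Control to the Ikaros mean, while the other Control samples lay between -10.8% and 4.62%. The differences of the called clusters are therefore given with and without it. Among defining markers, the B lineage genes Pax5 (0.982%), Ebf1 (0.205%) and Vpreb1 (0.337%) were unmethylated, the T lineage gene Lck was at 79.6%, and Epcam and Gata4, of epithelium and endoderm, were at 97.6% and 94.8%. No myeloid marker of the list had a cluster.

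Opposite states met inside 1 array. On chromosome 7, Zfp583 lies between Zfp667 and Zfp28, and each of these 3 KRAB genes has a run of CpGs directly before its first start. The 150 bases before that start are shown 5′ to 3′ on the strand of the gene, with each CG in capitals, for Zfp583 (chr7:6331286-6331435, minus strand), Zfp667 (chr7:6286429-6286578, plus strand), Zfp28 (chr7:6383145-6383294, plus strand) and for Zfp110 (chr7:12834611-12834760, plus strand), which belongs to another array of chromosome 7 and was methylated in part. These genes were chosen for display after their values were seen.
Zfp583: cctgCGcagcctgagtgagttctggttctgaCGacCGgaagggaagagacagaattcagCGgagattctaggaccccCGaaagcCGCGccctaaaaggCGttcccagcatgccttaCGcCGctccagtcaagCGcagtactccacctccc
Zfp667: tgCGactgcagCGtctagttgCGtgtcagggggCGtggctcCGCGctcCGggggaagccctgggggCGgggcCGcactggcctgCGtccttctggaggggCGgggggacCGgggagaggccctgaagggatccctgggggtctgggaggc
Zfp28: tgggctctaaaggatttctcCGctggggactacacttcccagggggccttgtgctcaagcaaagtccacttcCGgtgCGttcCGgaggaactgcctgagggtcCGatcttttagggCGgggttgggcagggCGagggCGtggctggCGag
Zfp110: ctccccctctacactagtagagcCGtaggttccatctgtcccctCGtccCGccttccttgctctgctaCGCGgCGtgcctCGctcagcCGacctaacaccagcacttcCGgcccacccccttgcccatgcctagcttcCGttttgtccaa
The stretches hold 11, 12, 9 and 10 CGs, and the tables list 12, 12, 12 and 9 positions with a value in every sample there, the cytosines of the strands being listed separately. Over the 36 samples the Zfp583 stretch had a lowest level of 91.1%, a median of 97.7% and a highest of 100%. The Zfp667 stretch ranged from 0% to 1.53% and the Zfp28 stretch from 0% to 1.96%, both with a median of 0%. The Zfp110 stretch ran from 28.1% through a median of 49.5% to 69.8%. The Zfp583 values and those of its neighbours were thus far apart in every sample, at a similar number of CGs, and Zfp110 overlapped neither.

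The promoters were mostly unmethylated, in arrays as in single genes. With classes of under 10% (unmethylated), 10% to 90% (partly methylated) and over 90% (methylated), 144 of the 194 measured genes were unmethylated (74.2%), 18 partly methylated (9.28%) and 32 methylated (16.5%). A mean level under 1% was found in 117 genes. Of the 93 measured array genes 69 were unmethylated, 10 partly methylated and 14 methylated, against 75, 8 and 18 of the 101 single genes. The median level was 0.681% in array genes and 0.629% in single genes. By comparison, among all 11075 measured autosomal protein-coding genes 65.1% were unmethylated, 8.50% partly methylated and 26.4% methylated, with a median of 0.743%. In the single samples, the median of the array genes minus that of the single genes ran from -0.317 to 0.312 percentage points around a median of 0.0521, and it was below 0 in 11 of 36 samples. The order of the medians therefore changed from sample to sample. The mean level, which the methylated genes dominate, was lower in array genes in 36 of 36 samples, by 1.88 to 3.19 percentage points. These are descriptions of one set of genes, for which no test was run.

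**Figure D1:**
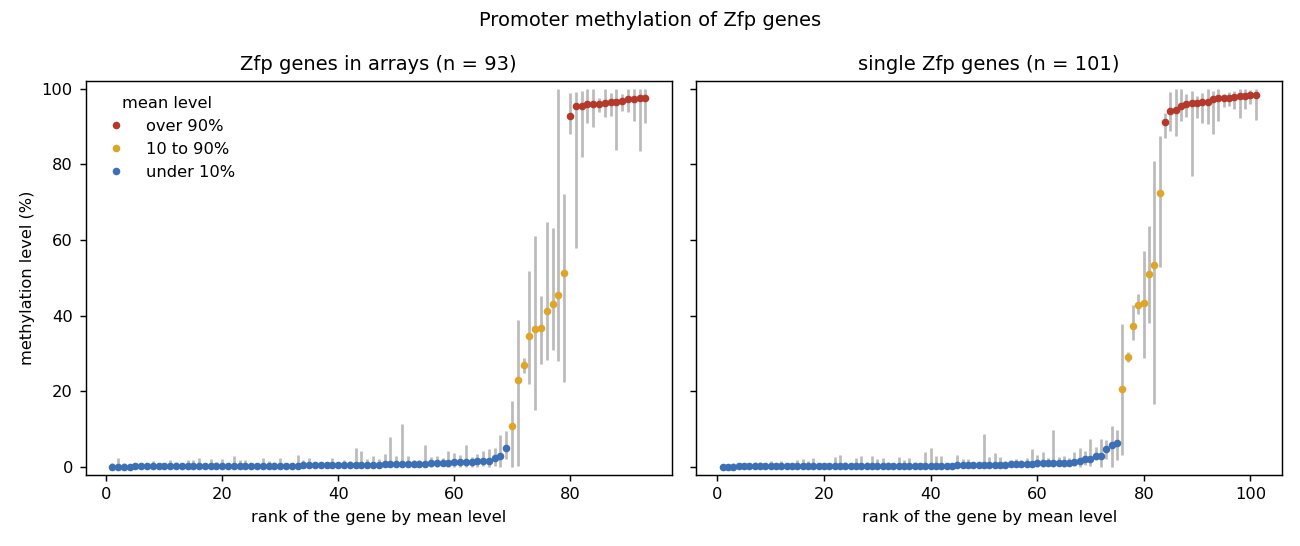
Mean promoter methylation level (%, vertical axis) of the 93 array genes and 101 single genes in order of level, with a grey line from the lowest to the highest of the 36 samples. In both panels most genes lie near 0%, the methylated genes form a plateau over 90%, and the longest lines belong to genes in between.

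Which Zfp genes could be measured at all differed more between the kinds than their levels did. A cluster was found for 93 of 242 array genes (38.4%) but for 101 of 141 single genes (71.6%). Each gene was given the largest number of CGs within 1 kb of any of its starts. The median of this number was 74 in measured and 39 in unmeasured array genes, and 112 and 44 in single genes. The CCGG sites that MspI needs, counted likewise, had medians of 8, 4, 15 and 5 in the same order. Measured genes of either kind had a median of 4 starts and unmeasured ones of 3. A KRAB core pattern, searched in the translated coding sequence of each gene, was present in 191 of 242 array genes (78.9%) and in 34 of 141 single genes (24.1%). Among array genes it was found in 136 of the 149 unmeasured genes but in 55 of the 93 measured ones. The study kept only clusters with at least 20 CpGs, so the measured genes had more CGs in part by construction. They are the more CpG-rich part of the family, and the levels of the other 189 genes were not analysed here. The median number of C2H2 fingers was 12 in measured array genes and 7 in measured single genes. Within the measured array genes, those with the pattern were unmethylated in 41 of 55 and methylated in 8 of 55, and those without it in 28 and 6 of 38. Among single genes the pattern went with 10 unmethylated and 2 methylated of 14.

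The measured genes of an array were of 1 class in some arrays and of several in others. Of 22 arrays with at least 2 measured genes, 6 had only unmethylated genes among those measured, 1 only methylated genes, and 15 genes of more than 1 class, 8 of them both an unmethylated and a methylated gene. Arrays on chromosomes 17 and 7 had the most measured genes, 7 each. The one on chromosome 17 lies from 21383748 to 22456689 and has 18 Zfp genes, and all 7 measured ones held a KRAB pattern. There Zfp51, Zfp53, Zfp229, Zfp943, Zfp942 and Zfp994 had mean levels of 0.245% to 1.60%, while Zfp760 ran from 28.4% through 40.6% to 64.7% in the samples. Zfp942 and Zfp943 share 1 cluster and thus 1 value. In the other, on chromosome 7 from 127233061 to 127615797, 6 of 7 measured genes had levels of 0.183% to 1.60% and Zfp768 stood at 27.0%. Zfp583, shown above, had 96.1% over its whole cluster, while Zfp787, Zfp444, Zfp667 and Zfp28 of the same array had 0.278%, 2.54%, 0.237% and 0.464%. On chromosome 8, Zfp709 (92.9%) and Zfp882 (97.5%) lie beside Zfp617 (0.419%). In an array of 6 Zfp genes on chromosome 11 only Zfp2 (96.6%) and Zfp354a (97.3%) were measured, and both were methylated. The arrays of Zfp583 and Zfp709 were picked for mention after their values were seen.

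**Figure D2:**
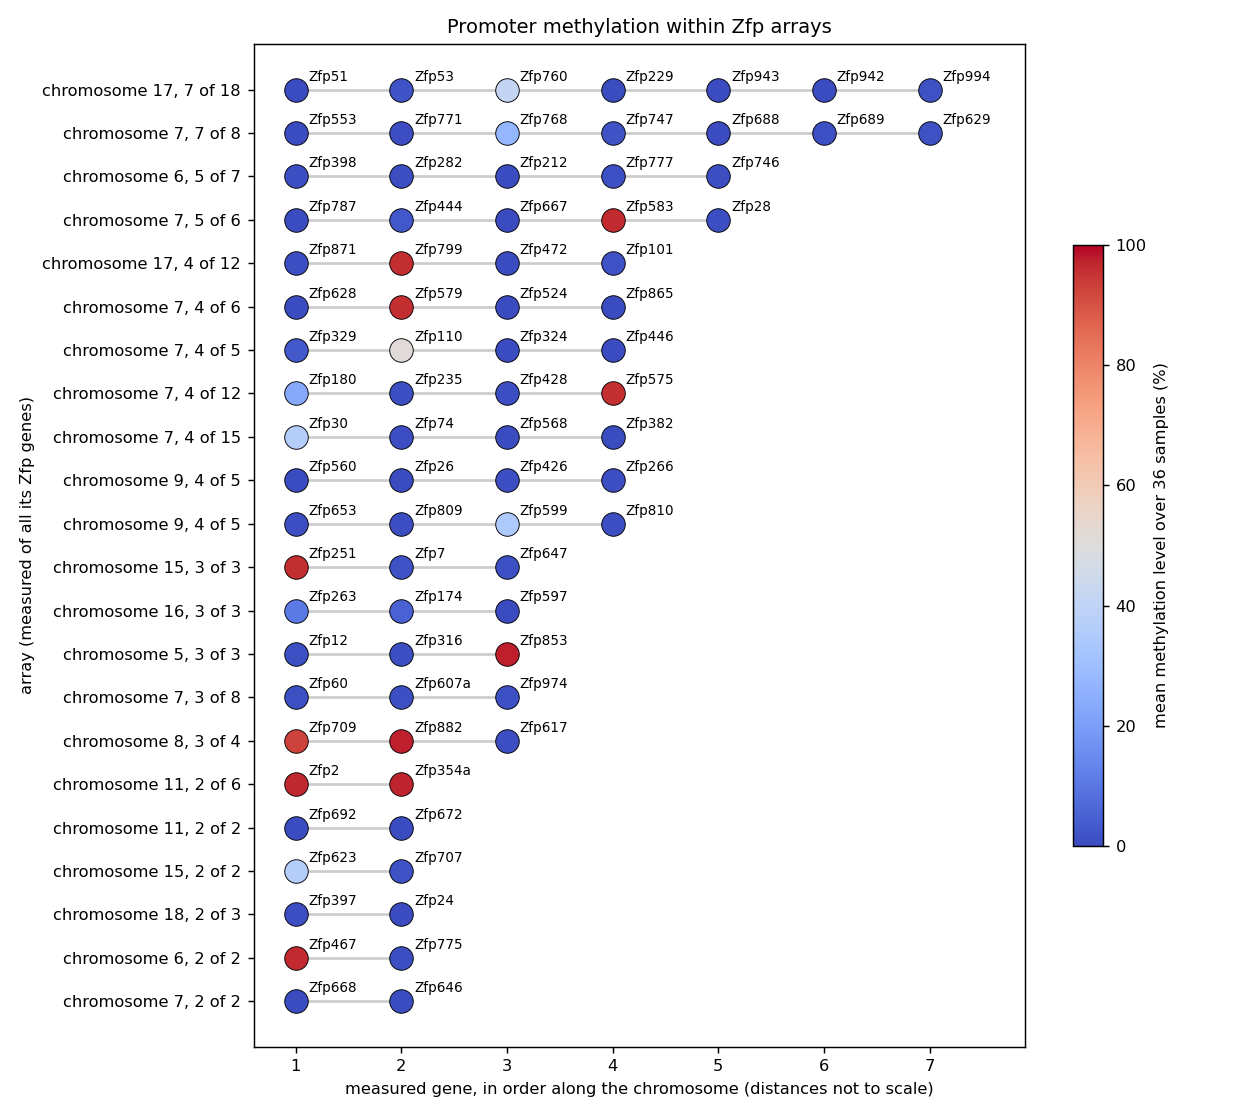
Mean promoter methylation level over 36 samples (colour, %) of the measured genes in the 22 arrays with at least 2 of them, each row an array and the genes in chromosomal order. Red and blue circles stand side by side in 8 of the rows, and the array on chromosome 17 holds 1 pale circle, Zfp760, among dark blue ones.

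The 15 genes with the highest level were nearly fully methylated in every sample at the cluster nearest to a start. They include Zfp618, a partner of the methylation reader Uhrf2, at 98.4% (lowest sample 91.6%, median 98.9%, highest 100%). Zfp518a had 98.3%, Zfp804a 98.1%, Zfp532 98.0% and Zfp536, a repressor of neuronal differentiation, 97.8%. Zfp64 had 97.5%, Zfp853 97.5%, Zfp882 97.5%, Zfp651 97.5% and Zfp521 97.4%, and Zfp385b, Zfp354a, Zfp287, Zfp2 and Zfp641 lay between 96.6% and 97.3%. Zfp521 encodes a cofactor that represses Ebf1, the factor that starts the B lineage, and its level ran from 91.3% to 100%. Its close relative Zfp423 had 95.5%, with 6 clusters that all lay between 95.5% and 98.2%. The developmental regulators Zfp462 (96.4%) and Zfp503 (96.0%) were methylated as well. Among the 32 methylated genes the median SD within conditions was 1.84 percentage points, and 1 had another cluster under 10%. In 27 the start nearest to the cluster was that of a protein-coding transcript, and in 25 that start lay within 1 kb of the first start of the gene. The cluster lay mostly in an intron in 15 and mostly in a non-coding exon or UTR in 14. The array gene Zfp575 varied most, with a median of 96.7% and a lowest sample at 57.8%.

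Unmethylated promoters belonged to genes of many functions. Zfp36 (0.309%) and Zfp36l2 (0.152%) encode RNA-binding proteins that speed the decay of AU-rich mRNAs, and no C2H2 finger was found in either. Zfp143 (0.203%), which binds promoters at chromatin contacts, Zfp148 (0.322%), Zfp281 (0.983%), Zfp91 (0.268%), Zfp217 (0.318%) and Zfp335 (0.141%) were unmethylated in every sample, with no value over 3.31%. Zfp318, which is needed for IgD expression in B cells, ran from 0.232% to 2.44%. Of the KRAB genes with a known target, Zfp809, which recognises the primer binding site of proviruses, ran from 0% to 1.32%, and Zfp568, a repressor of a placental Igf2 promoter, from 0% to 1.04%. Zfp189 (1.22%) and Zfp369 (1.23%) were similar. Over all 244 clusters, 23 were at or under 1% and 76 at or under 2% in each of the 36 samples. Zfp57, Zfp36l1, Zfp750 and Zfp106 of the fixed list had no cluster.

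The 18 partly methylated genes were of different kinds. In Zfp3, Zfp277, Zfp664 and Zfp768, positions under 10% and positions over 90% lay in the same cluster, so that the mean averaged over a boundary. In Zfp664 the positions ran from 0.230% to 98.0%, and in Zfp3 from 1.17% to 97.1%. These cluster means hardly moved between replicates, with SDs within conditions of 0.552 to 1.36 percentage points. In 9 other genes no position lay under 10% or over 90%. These were the array genes Zfp110, Zfp873, Zfp606, Zfp760, Zfp30 and Zfp599 and the single genes Zfp558, Zfp808 and Zfp770. Their SDs within conditions were 6.33 to 12.8 percentage points, above those of all 4 boundary genes but overlapping those of the remaining 5 partly methylated genes (3.18 to 9.36). The boundary clusters averaged 106 to 248 positions and those of the 9 genes 6 to 78. The SDs are therefore not compared at equal numbers of positions, and the cause of their difference was not tested. A KRAB pattern was found in 8 of these 9 genes and in none of the other 9 partly methylated ones, beside 69 of all 194 measured genes. The division into shapes was made from the values themselves and was not tested, and the search for the pattern can miss divergent forms. The 11 positions of Zfp873 lay 212 to 271 bp downstream of the start, a span shorter than the smoothing bandwidth of 80 bp. Smoothing brings positions this close to near-equal values, and they spanned 45.5% to 45.7%. The samples of Zfp873 ran from 28.1% through 44.1% to 100%. The value of 100% was that of Ikaros 24 h replicate 2. Zfp606 ran from 31.0% through 42.0% to 63.2%, Zfp599 from 22.0% through 32.8% to 51.8%, and Zfp30 from 15.1% through 37.2% to 61.1%. Zfp558 had the highest level of these genes, from 53.0% through 74.7% to 87.5%. In Zfp808 part of the 50-base words of the cluster occur elsewhere in the genome, so its level is uncertain. The remaining 5 genes, Zfp41, Zfp623, Zfp180, Zfp385a and Zfp263, had positions beyond one limit only. The tables are smoothed over 80 bp, which flattens single positions and draws the positions of short clusters together. Whether a level between the limits reflects a mixture of cells or a difference between alleles cannot be told apart.

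**Figure D3:**
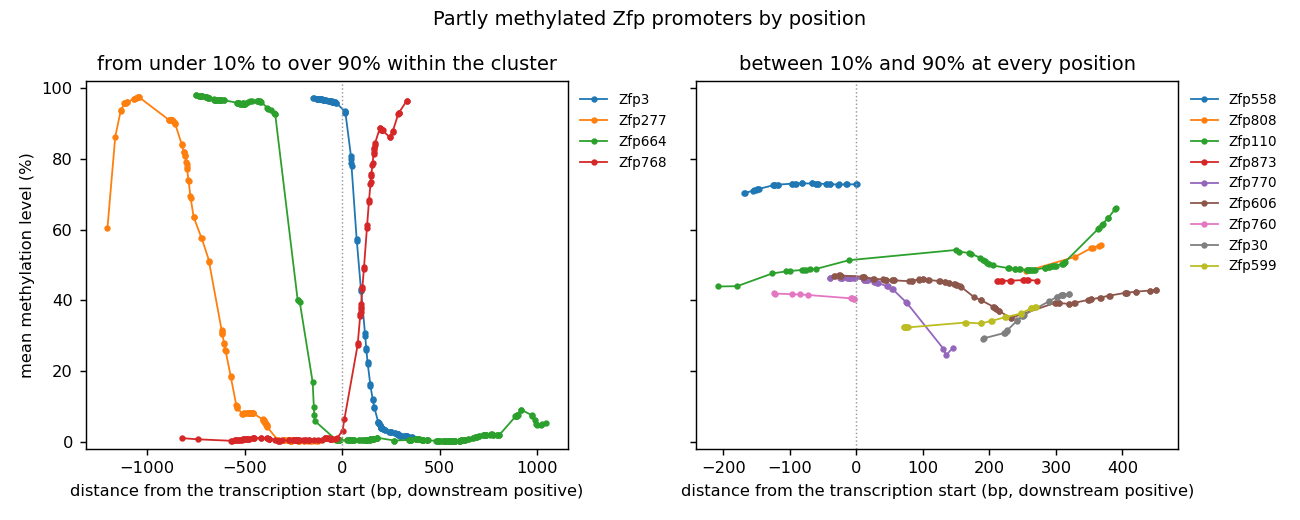
Mean level over 36 samples (%, vertical axis) at each position with a value in every sample, by distance from the transcription start (bp), for the 4 genes whose cluster spans a boundary (left) and the 9 genes between 10% and 90% throughout (right). The left curves cross from near 0% to over 90% within the cluster, while 8 of the 9 right curves stay between 24.5% and 66.1% and Zfp558 stays at 70.3% to 73.1%.

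Starts of 1 gene could differ. Of 39 genes with more than 1 cluster, 13 had clusters in more than 1 class. Zfp64, an activator of the Mll gene in leukaemia cells, had 97.5% at the cluster nearest to a start, 42954 bp from the first start of the gene, and 0.275% at its other cluster. Zfp703 had 1.12% at its first start and 97.4% at another cluster. Zfp597 had 0.350% and 93.1%, and Zfp219 had 5 clusters from 0.173% to 97.9%. With only the first start of each gene, 89 array and 93 single genes were measured, and 14 of each were methylated. Among bins of 200 bp with at least 10 genes, the median level over genes was lowest in the bin just upstream of the start, at 0.397% in array and 0.382% in single genes. In that bin 7.69% of 65 array genes and 19.0% of 84 single genes had a level over 50%, against 18.5% of 81 and 21.3% of 94 in the next 200 bp. Another protein-coding gene had a start within 1 kb of the cluster in 27 of the 194 genes, 24 of them unmethylated.

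**Figure D4:**
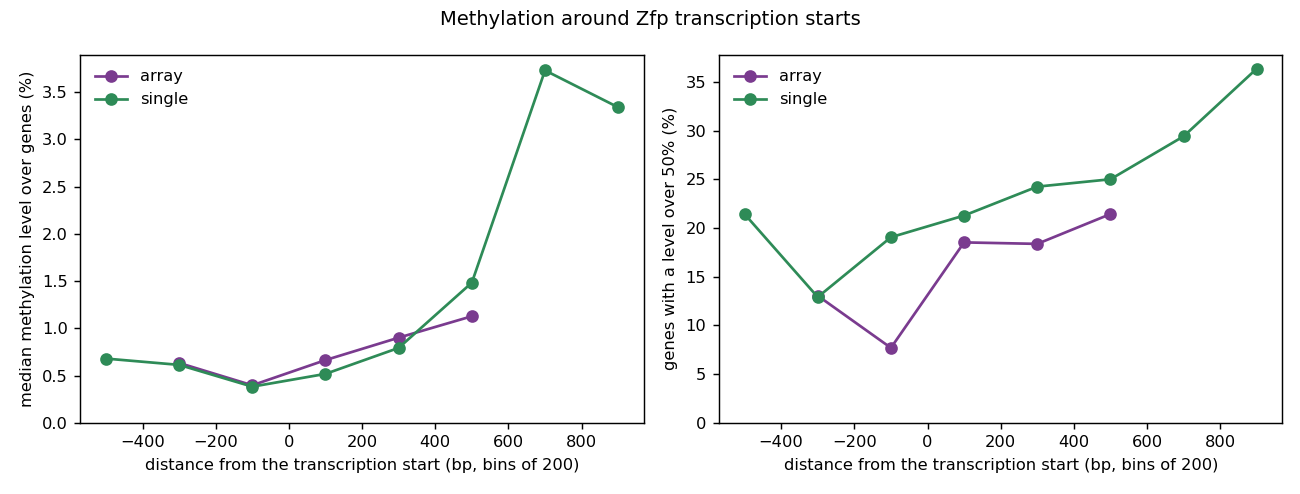
Median methylation level over genes (%, left) and share of genes with a level over 50% (%, right) in bins of 200 bp by distance from the transcription start, for array and single genes, in bins with at least 10 genes. Among these bins both medians are lowest in the one just upstream of the start, and the array share is lowest there too at 7.69%.

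Most measured genes of other zinc finger families and of the Trim28 pathway were unmethylated too. Of 40 Zbtb genes, whose proteins join zinc fingers to a BTB domain, 34 were measured, 29 of them unmethylated, 1 partly methylated and 4 methylated. Of 19 Zscan genes 4 were measured, with 3 unmethylated, and of 11 Zkscan genes 5 were measured, with 4 unmethylated. In the Trim28 pathway 16 of 18 measured genes were unmethylated, among them Trim28 (0.185%), Cbx3 (0.239%), Dnmt1 (0.220%) and Uhrf1 (0.271%). Setdb1 stood at 33.8%, and Atf7ip, which stabilises Setdb1, at 98.2% at the cluster nearest to one of its starts.

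The comparison of the series asks whether the populations with and without the Ikaros fusion differ. Few Zfp clusters did. In limma, with the time point as a factor and M-values (log2 of the ratio of methylated to unmethylated), 9 of 244 Zfp clusters (3.69%) passed an adjusted p of 0.05, beside 4.84% of all 16734 clusters. Without Control 24 h replicate 2 these were 9 Zfp clusters and 4.97% of all clusters. In 5 the level was higher in Ikaros, beside 3.71% of all clusters, and in 4 it was lower, beside 1.13%. Of the 9, 2 belonged to array genes (of 101 clusters) and 7 to single genes (of 143). A difference of over 5 percentage points was seen in 3 Zfp clusters (1.23%) and in 2.89% of all clusters. The percentage of all clusters called fell to 2.00% when the share of empty values and of exact 0% or 100% values of each sample entered as covariates, and 3 Zfp clusters were then called. All 9 had the same sign within each of the 3 replicate numbers. They were called from these same samples, so this gives no separate support. None was called within a single replicate number, where the lowest limma adjusted p was 0.0563 (first Zfp704 cluster, replicate number 3).

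The smallest p was that of the upper cluster of Zfp597, at higher coordinates than its other one, in the array on chromosome 16 (3872299 to 3872706), which spans an alternative start of Zfp597 and a start of Naa60, an N-terminal acetyltransferase gene on the other strand. The part of it that lies outside annotated exons (chr16:3872582-3872706, plus strand, CGs in capitals) is shown, and the larger difference lay in the rest of the cluster. Over the 12 measured positions of the shown stretch the level was 98.1% ± 1.51 in Ikaros and 95.8% ± 1.99 in Control (SD, n = 18), a difference of 2.24 percentage points. Over the other 27 positions it was 96.4% ± 1.54 and 86.3% ± 4.15, a difference of 10.1.
Zfp597 upper cluster: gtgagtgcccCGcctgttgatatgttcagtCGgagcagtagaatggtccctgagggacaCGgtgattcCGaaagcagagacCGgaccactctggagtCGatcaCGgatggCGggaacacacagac
The levels of the whole cluster in Ikaros ran from 94.2% through a median of 96.6% to 99.3%, and in Control from 84.5% through 90.4% to 95.5%. The highest Control sample was Control 24 h replicate 2, and the next was at 91.7%, below all Ikaros samples. Means were 96.9% ± 1.24 (SD, n = 18) and 89.3% ± 2.98 (SD, n = 18), a difference in M-value of 1.77 (SE 0.17, limma adjusted p = 1.56e-08). The difference was 7.66 percentage points with and 8.03 without that sample. At 0 h it was already 4.94 percentage points, with 96.0% ± 1.70 in Ikaros and 91.1% ± 0.567 in Control (SD, n = 3), and at 12 h it was 10.4. With the sample covariates the limma adjusted p was 6.40e-06. The other cluster of Zfp597 had 0.350% and was not called.

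Both clusters of Zfp704 were lower in Ikaros. The cluster at its start (chromosome 3, 9609621 to 9610197) ran from 0.278% through 0.737% to 3.55% in Ikaros and from 0.664% through 3.05% to 7.35% in Control. The lowest Control value was again Control 24 h replicate 2, and the next was 1.72%. The means were 0.959% ± 0.793 and 3.46% ± 1.71 (SD, n = 18), with an M-value difference of -1.08 (SE 0.17, limma adjusted p = 5.77e-05). At 24 h the difference was -0.250 percentage points, against -1.78 to -3.72 at the other times, and without Control 24 h replicate 2 it was -0.813. Levels under 1% all have the same M-value in the tables, which held for 70.0% of the position values of this cluster in Ikaros and 22.9% in Control. The neighbouring cluster, mostly in a coding exon, had 2.57% ± 1.31 and 4.66% ± 1.83 (limma adjusted p = 0.0199). The groups overlapped in both. The differences were -2.50 and -2.09 percentage points, and -2.67 and -2.12 without Control 24 h replicate 2. Only the Zfp597 cluster and the first Zfp704 cluster of the 9 remained called with the sample covariates, and the third call there was Zfp799 (limma adjusted p = 0.0344), which the fit without them gave 0.432. The second Zfp704 cluster and Zfp692 lost their calls with a wider difference and a wider error, an M-value difference of -1.06 (SE 0.30) in place of -0.87 (SE 0.23) and of -0.65 (SE 0.22) in place of -0.56 (SE 0.15). In the other 5 the M-value difference narrowed, from 0.81 to 0.51 in Zfp219, from -0.79 to -0.46 in Zfp385a, from 0.45 to 0.33 in Zfp277, from 0.48 to 0.39 in Zfp609 and from 0.22 to 0.18 in Zfp687.

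In the other called clusters the groups overlapped as well. Zfp277, whose product binds a Polycomb subunit and whose cluster also covers a start of Dock4, ran from 36.9% through 38.8% to 42.9% in Ikaros and from 33.6% through 35.6% to 38.4% in Control, the top Control value being that of Control 24 h replicate 2. The limma adjusted p was 9.67e-04, and 0.197 with the covariates. Zfp219, a cofactor of Sox9, had 92.5% ± 2.27 and 90.3% ± 2.54 (SD, n = 18, limma adjusted p = 0.0114) at 1 of its methylated clusters. Zfp687, part of a chromatin complex with Zmynd8, had 3.31% ± 0.784 and 2.43% ± 0.541 (limma adjusted p = 0.0153). Zfp692, the other array gene, had 0.952% ± 0.678 and 1.94% ± 0.893 (limma adjusted p = 0.0291), with 56.3% and 15.9% of its position values under 1%, and Zfp385a, a modulator of p53, had 18.4% ± 7.24 and 23.1% ± 5.67 (limma adjusted p = 0.0368). Zfp609, a partner of the Integrator complex, had 3.95% ± 2.01 and 2.07% ± 0.851 (limma adjusted p = 0.0495). It was not called with a replicate block (limma adjusted p = 0.0591) or with the batch of the labels as a block (0.0563). Without Control 24 h replicate 2 all 9 clusters remained called, with limma adjusted p from 4.63e-09 to 0.0346. The difference of Zfp277 was 3.34 percentage points with and 3.50 without it, that of Zfp219 2.22 and 2.35, and that of Zfp609 1.88 and 2.02. For Zfp687 it was 0.874 and 0.841, for Zfp692 -0.987 and -1.04, and for Zfp385a -4.79 and -5.17. In percentage points the sign was opposite at 1 time in 4 clusters, at 24 h in Zfp692 (0.199) and Zfp609 (-1.42), at 18 h in Zfp385a (3.84) and at 2 h in Zfp219 (-0.567). On M-values, the tested scale, the first 2 of these were opposite as well (0.36 and -0.50), whereas Zfp385a at 18 h (-0.0085) and Zfp219 at 2 h (0.0075) were near 0 with the sign of the whole comparison. Without Control 24 h replicate 2 the 24 h differences were 0.235 percentage points in Zfp692 and -0.639 in Zfp609, and Zfp687 went from 0.0154 to -0.382. These 24 h values were computed after the data were seen. Zfp219 was not called on smoothed levels (limma adjusted p = 0.0849) or with positions valued in at least 30 samples (0.644), where its M-value difference fell from 0.81 to 0.43, and Zfp385a was not called on smoothed levels (0.264). With each sample left out in turn Zfp692 was called in 33, Zfp385a in 19 and Zfp609 in 8 of 36 fits, while the other 6 clusters were called in 36 of 36. For Zfp692 the highest adjusted p in limma, 0.0507, came without Control 6 h replicate 1.

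**Figure D5:**
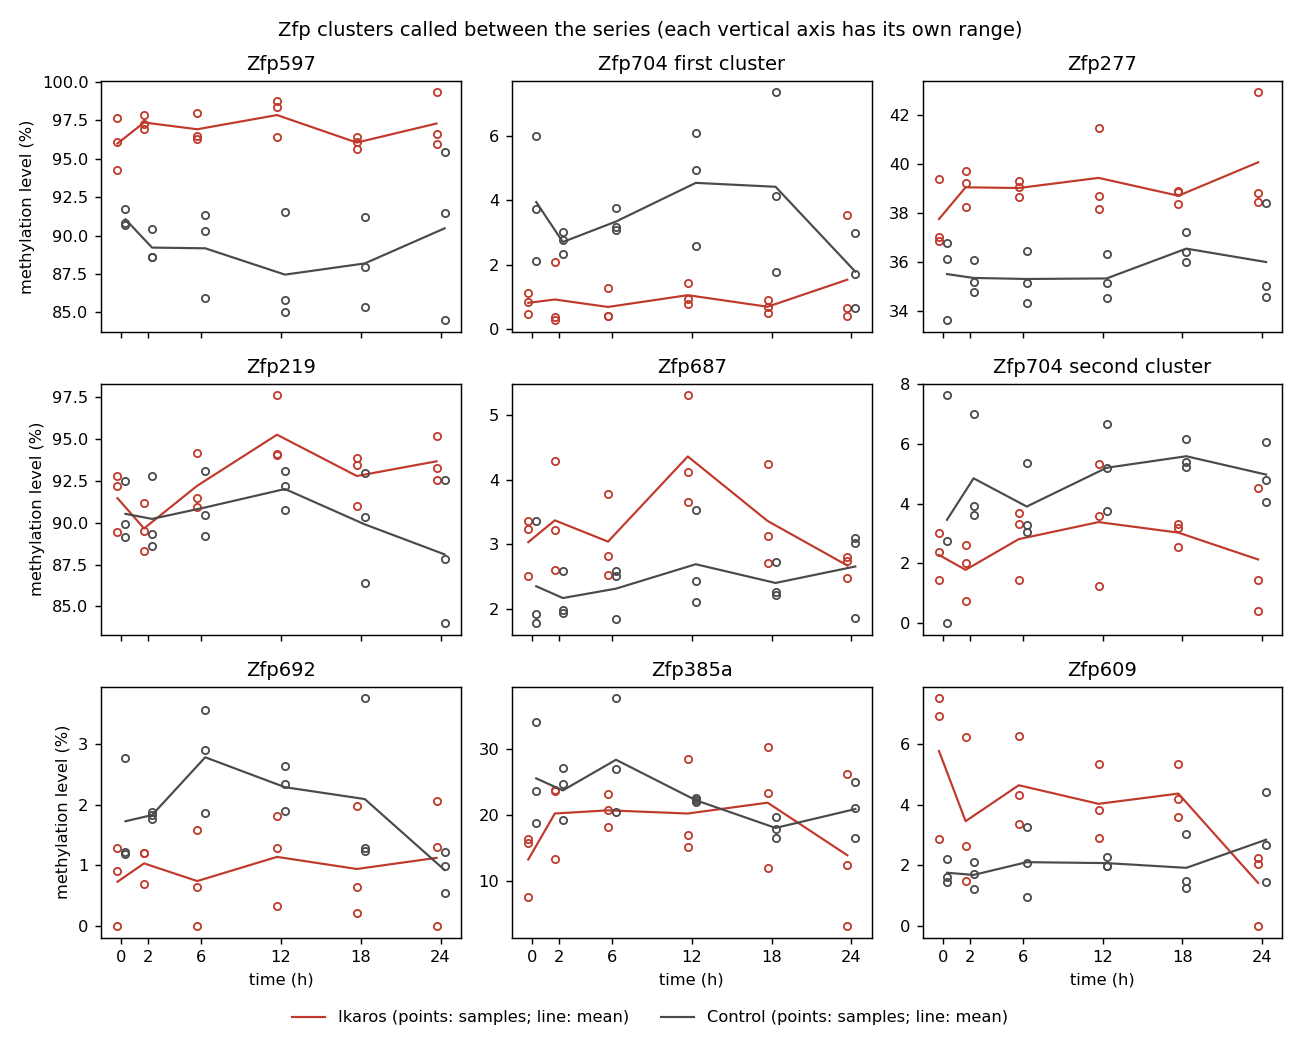
Methylation level (%, vertical axis, own range in each panel) of the 9 Zfp clusters called between the series, by time (h), with a circle for each sample and a line through the means of 3 replicates, Ikaros in red and Control in dark grey. In the Zfp597 panel a single Control circle, at 24 h and 95.5%, lies among the Ikaros circles.

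Change over time asks whether the promoters respond to 4-OHT within a day. No Zfp cluster passed the limma F test in either series or the test of a different course between them. In Ikaros the smallest adjusted p in limma was 0.762, and 9 of 244 clusters had an unadjusted p under 0.05, beside 5.22% of all clusters, of which 0% were called. In Control the smallest adjusted p in limma was 0.755 and 7 clusters had an unadjusted p under 0.05, beside 4.83% of all clusters, of which 0.0120% were called. For the difference in course these were 0.729, 8 clusters, 5.12% and 0%. These values are from the fits with all samples. Zfp438 passed in Ikaros and for the course without Ikaros 24 h replicate 1, and Zfp330 passed both without Ikaros 24 h replicate 3. From 0 h to 24 h the median Zfp cluster moved by 0.0524 percentage points in Ikaros and by -0.0570 in Control. These results do not show that levels stayed the same. The study obtained its 0 h cells separately, and in the labels batch 2 occurs only at 0 h and batch 3 only at later times. A move from 0 h cannot be fully told apart from this separate collection. In each series 12 Zfp clusters (4.92%) moved by over 5 points, beside 5.35% and 4.69% of all clusters. The widest moves were those of the partly methylated genes Zfp873 (18.6 points) and Zfp599 (-13.3 points) in Ikaros, and of Zfp808 (18.9 points) and Zfp180 (-17.6 points) in Control, none of which passed the test. The value of 100% in Zfp873 came from Ikaros 24 h replicate 2, the sample with the largest share of exact values, and without it the move was -1.69 points. Zfp599 moved by -11.2 points without it. In Control 0 h replicate 1, the sample with the most empty positions, Zfp808 had its lowest level (16.7%) and Zfp180 its highest (39.0%), and without it the moves were 7.58 and -14.7 points. These values without a sample were computed after the data were seen. The mean level over the 93 array genes was 19.1% ± 0.338 at 0 h and 19.0% ± 0.580 at 24 h in Ikaros, and 18.9% ± 0.555 and 18.5% ± 0.207 in Control (SD, n = 3).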

How the data were processed

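RRBS was done on 36 samples, 18 in each series. After trimming, the authors aligned reads to GRCm38 (mm10) with Bismark 0.10.1 and smoothed the calls within CpG clusters with BiSeq, bandwidth 80 bp, without a minimum coverage. One deposited table gives smoothed levels as a fraction (0 to 1). A second deposited table gives M-values, a log2 scale, from levels limited to 0.01 and 0.99, so that levels under 1% share 1 M-value, as do levels over 99%. Neither table holds coverage, so no counting error can be given.

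Positions valued in each of the 36 samples were averaged per cluster with Python 3.11.15, numpy 2.4.6 and pandas 2.3.3. Each gene took the cluster nearest to any of its annotated starts, and all 16301 member positions fell on a CG of GRCm38. M-value means were fitted across all 16734 clusters in R 4.3.3 with limma 3.58.1 (lmFit, eBayes, Benjamini-Hochberg, adjusted p under 0.05). The procedure was also run on simulated data, where the tests of time and of interaction missed most of the smaller changes put in. The series test had the time point as a factor, and time was tested by F tests within a series and by interaction terms. Members and gene lists were chosen with earlier results of these data known. Named were the called clusters, the 15 highest genes, the partly methylated genes, a fixed list of 25 genes and the 2 arrays with the largest number of measured genes. C2H2 fingers and a KRAB core pattern were searched in coding sequences translated from GENCODE M21, in place of the RefSeq proteins planned. The sequences shown were read from GRCm38. Replicate numbers 1, 2 and 3 recur in every condition and mark batches (1, 2 or 3, and 4) in the labels. Batch 2 occurs at 0 h only and batch 3 at the later times only. Deviations from the condition means of same-numbered samples had a mean correlation of -0.000326 over 198 pairs, none over 0.1. The alternatives are levels in place of M-values, blocks, covariates, other position sets, windows, starts and array distances, and each sample left out. Further data types of the study were not used here.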

Additional observations from a re-analysis of the deposited data

How the results depend on the processing

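Of the 9 Zfp clusters called between the series, 8 were called with a replicate block and 8 with the batch of the labels, Zfp609 being lost in both, so the paired fits changed no other call. With the sample quality covariates 3 were called, and with covariates and a replicate block together, added after seeing the data, 4. These called 335 and 355 of all clusters against 810, and the cause was not tested. The smoothed levels gave 9 (7 of them shared, without Zfp219 and Zfp385a and with Zfp768 and Zfp358 gained), positions with a value in at least 30 samples 10 (8 shared, without Zfp219 and with Zfp358 and Zfp7 gained), and names of Zfp and digits only 8. Leaving out 1 sample gave 7 to 9. No called difference changed sign in these fits. For change over time in Ikaros and for the difference in course, leaving out 1 sample gave 0 to 1 calls: Zfp438 without Ikaros 24 h replicate 1 and Zfp330 without Ikaros 24 h replicate 3. For Control it gave 0, and the replicate block gave 0 in all 3 time tests. The median of array minus single genes, 0.0523 percentage points, lay between 0.00548 (neighbours within 500 kb) and 0.147 (at least 30 samples) under the other choices and between 0.0161 and 0.117 with 1 sample left out. All these moves were under the SD of 0.138 between replicates of a condition. Genes over 50% numbered 36, with 31 to 37 under the other choices, the first start only (32, added after seeing the data) included. Depth limits each level in an unknown degree.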

Other observations

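RefSeq promoters (GRCm38, 250 bases before to 50 after a start) were matched by symbol for 156 of the 194 measured genes. In them CCGG occurred in 88.5%, in 81.1% of array and 95.1% of single genes, against 55.2% of all 27025 genes of the table. The median number of CG was 16.5 in array and 24.5 in single genes, and 8 over the table. TGGGAA, searched on both strands, occurred in 36.5% of the 74 array and 17.1% of the 82 single genes, and in 28.3% over the table. Array genes without a measured cluster had it in 52.7% of 131, and such single genes in 38.7% of 31. A gene counts when any of its promoters holds the word, and a match is a description only.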
